A study of Mus musculus with 9 samples.

Results

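The actin contractile genes are described here in primary mouse articular chondrocytes. The set holds 10 genes, *Acta2*, *Actg2*, *Tagln*, *Cnn1*, *Cnn2*, *Myl9*, *Mylk*, *Tpm1*, *Tpm2* and *Des*, taken by symbol from the 55471 genes that each culture's table lists. RNA-seq was carried out on 9 cultures of chondrocytes taken from the knee joint surfaces (femoral condyles, tibial plateaus) of wild type mice at postnatal day 5, in 3 groups of 3. The Control group carried a control adenovirus (Ad-Control in the study's methods). The Ad-OSCAR group carried an adenovirus that expresses osteoclast-associated receptor (OSCAR), a collagen receptor, and the Ad-OSCAR + 5-ASA group carried the same virus and then received 5-aminosalicylic acid (5-ASA), an anti-inflammatory drug. All 3 groups were therefore infected, and all were grown on plates coated with the collagen peptide COLpep, with no IL-1β. The labels give 3 days of culture, infection for 2 h at 400 MOI and 36 h of culture before 5-ASA, whereas the methods give 2 days, 800 MOI and 24 h with or without 10 µM 5-ASA. The study's statistics section says in general that each n counts independent samples. None of the sources says for these cultures whether the 3 of a group came from separate animals or platings. The p-values therefore measure only the spread between these cultures.

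Smooth muscle actins, tropomyosins, calponins and transgelin build and regulate the actin filaments on which myosin pulls, and myosin light chain kinase (the product of *Mylk*) switches that pull on by phosphorylating the regulatory light chain. Myofibroblasts and smooth muscle cells make these proteins in large amounts, and chondrocytes spread on a flat culture surface begin to make them as they lose their rounded form and assemble stress fibres. Many of the genes are read by serum response factor (SRF), which binds a DNA element called the CArG box and is switched on by the actin-sensing cofactors MRTF-A and MRTF-B.

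The CArG boxes that lie close to the start sites are shown first, because SRF is the factor these genes are best known for sharing. Promoter sequences (RefSeq, GRCm38.p6, from 250 bases before to 50 bases after the start) were at hand for 8 of the 10 genes, the exceptions being *Actg2* and *Tagln*. A complete CArG box was found in 2 of these 8 windows, those of *Cnn2* and *Myl9*, and 1.63% of all 32851 promoter windows held one. When 1 departure from A or T was allowed in the 6 middle bases, *Acta2* joined them, giving 3 of 8 genes against 9.98% of all windows. No such element was found in the windows of *Cnn1*, *Mylk*, *Tpm1*, *Tpm2* and *Des*. The sequences are written 5′ to 3′ on the coding strand with the CArG elements in capitals. The *Cnn2* and *Myl9* stretches end where the first annotated exon (GENCODE M21) begins, and the *Acta2* windows of 30 bases lie within an annotated exon of an *Acta2* transcript.
Cnn2 (chr10:79988350-79988583, + strand): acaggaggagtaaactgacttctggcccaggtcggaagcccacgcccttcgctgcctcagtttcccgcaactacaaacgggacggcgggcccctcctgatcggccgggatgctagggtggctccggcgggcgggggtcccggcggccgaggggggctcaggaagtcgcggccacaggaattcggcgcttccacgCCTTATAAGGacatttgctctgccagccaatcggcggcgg
Myl9 (chr2:156775214-156775419, + strand): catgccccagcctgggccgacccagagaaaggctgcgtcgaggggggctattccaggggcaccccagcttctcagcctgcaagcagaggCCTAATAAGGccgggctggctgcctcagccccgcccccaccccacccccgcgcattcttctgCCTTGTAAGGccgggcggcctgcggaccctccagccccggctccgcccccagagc
Acta2, upstream element (chr19:34255438-34255467, - strand): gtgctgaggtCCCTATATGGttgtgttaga
Acta2, downstream element (chr19:34255388-34255417, - strand): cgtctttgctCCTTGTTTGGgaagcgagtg
The complete *Cnn2* element begins 56 bases before the RefSeq start and the complete *Myl9* element 161 bases before it. The second *Myl9* element, with 1 departure, begins 99 bases before the start, and the *Acta2* elements begin 84 and 34 bases before it. The letters GGAATG, the core to which TEAD factors bind, were searched on both strands and lay in the windows of *Acta2*, *Mylk* and *Tpm1*, which is 3 of 8 against 14.7% of all windows, and none of these overlapped a CArG element. A match of letters is a description of the sequence and not a measured binding site.

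The labels were checked before any comparison. Total counts ran from 19733448 to 28192740 per culture. *Oscar* itself lay between 0.123 and 0.211 CPM (counts scaled to a common library size and, by TMM, to library composition) in Control, between 6354 and 7112 in Ad-OSCAR, and between 2946 and 3723 in Ad-OSCAR + 5-ASA, where the virus's copy and the cells' own gene are counted together. The 10 chondrocyte markers summed to 14070 to 16030 TPM (a level per transcript length, relative to each culture's total) in Control, where they fit the labelled cell type, against 878 to 1011 in Ad-OSCAR and 975 to 1162 with 5-ASA, and all 10 were lower with Ad-OSCAR. The smooth muscle and pericyte list summed to 971 to 1146, 792 to 830 and 686 to 803 TPM, nearly all of it from *Ndufa4l2*, and *Myh11*, the defining myosin of smooth muscle, averaged 0.133, 0.0667 and 0.103 TPM. Within that list 2 of 6 tested genes were higher and 3 lower with Ad-OSCAR, where 32.7% of all genes tested were higher and 32.2% lower. The pericyte markers *Rgs5* (1.99 to 13.9 TPM, log2 fold change 2.89 ± 0.09) and *Notch3* (1.31 to 5.72 TPM, 2.20 ± 0.13) rose, while *Cspg4* (-1.42 ± 0.07) and *Mcam* (-1.81 ± 0.17) fell. Skeletal muscle markers summed to at most 8.67 TPM in any culture, with *Myod1* at 0 throughout, and endothelial markers to at most 2.26 TPM. Macrophage markers summed to 8.28 to 11.5, 20.3 to 22.3 and 15.9 to 17.3 TPM, with *C1qa* at 0 throughout. The list for synovial and other fibroblasts summed to 258 to 271, 581 to 630 and 494 to 552 TPM, a sum led by *Prg4* (149 TPM in Control, 531 TPM in Ad-OSCAR), which marks superficial zone chondrocytes as well. Of its 7 tested genes 5 were lower with Ad-OSCAR, *Thy1* among them (-2.53 ± 0.10), and 2 were higher, with a median log2 fold change of -1.67. What these shifts contribute to the values below was not tested, and in bulk RNA fewer cells of a type and less RNA per cell cannot be told apart.

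Per transcript length, the tropomyosins stood at the top of the set in every group. In Control the order by mean TPM was *Tpm1* (524 TPM), *Tpm2* (287 TPM), *Acta2* (254 TPM), *Cnn2* (222 TPM), *Tagln* (171 TPM), *Myl9* (94.2 TPM), *Cnn1* (27.9 TPM), *Actg2* (16.8 TPM), *Mylk* (13.5 TPM) and *Des* (0.393 TPM). In Ad-OSCAR *Cnn2* (57.4 TPM) stood above *Acta2* (44.9 TPM), and *Cnn1* (1.81 TPM) had dropped below *Mylk* (7.71 TPM) and *Actg2* (4.15 TPM). With 5-ASA the order was the same as in Ad-OSCAR. In none of the 3 groups did the ranges of neighbouring genes in this order overlap between their 3 cultures. These chondrocytes thus carried 9 of the 10 transcripts at 13.5 TPM or more in Control while *Myh11* and *Des* stayed below 1 TPM.

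The first comparison, Ad-OSCAR against Control, asks what OSCAR overexpression does to the chondrocyte transcriptome. Of the 10 genes, 9 were lower with Ad-OSCAR at an adjusted p under 0.05, none was higher, and *Des* did not pass the test. Over all 15362 genes tested, 32.2% were lower and 32.7% higher in the same fit. By the study's own criteria (an absolute log2 fold change above 1.5 and an adjusted p under 0.05) 7 were lower, against 5.39% of all genes. The same 9 genes had no overlap between the 3 Control and the 3 Ad-OSCAR cultures, against 34% of all genes not overlapping in that direction. The median log2 fold change of the 10 was -2.01, and that of all genes tested was 0.02. All 10 passed the filter on low counts, and 9 of them had at least 10 counts in every culture.

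**Figure D1:**
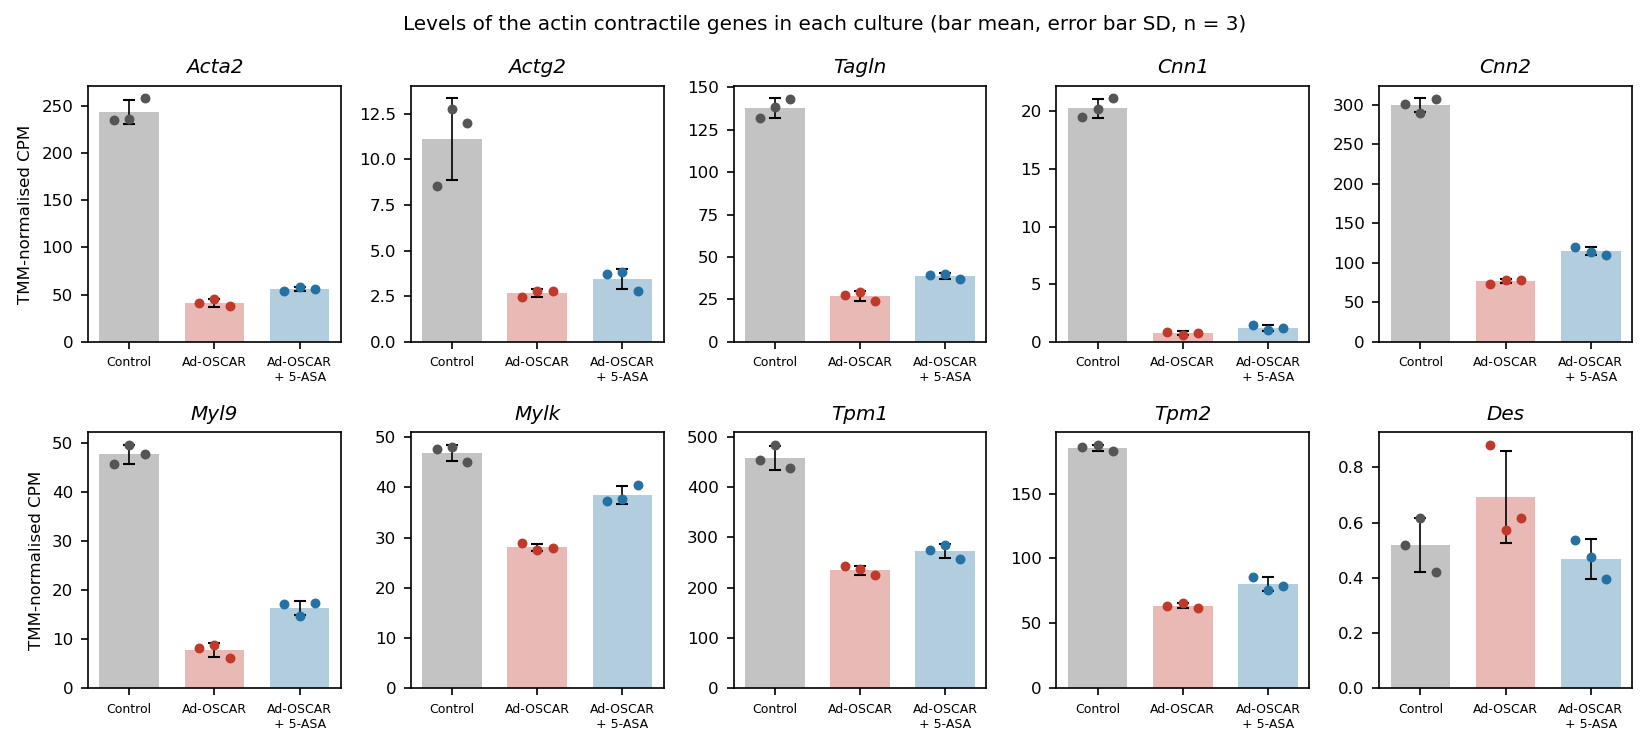
Level of each of the 10 genes in every culture, in TMM-normalised CPM on a linear axis from 0 (points, 3 cultures per group; bars, mean; error bars, SD). In 9 panels the Control cultures stand above all 6 cultures with Ad-OSCAR, and only *Des*, under 1 CPM, has overlapping groups.

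*Acta2* (ENSMUSG00000035783.9, chr19:34241090-34255590) encodes smooth muscle α-actin, the usual marker of a myofibroblast. It measured 235, 236 and 258 CPM in the Control cultures, 40.9, 45.4 and 37.6 CPM in Ad-OSCAR and 54.4, 57.7 and 56.0 CPM with 5-ASA. The 3 groups did not overlap, and every 5-ASA culture lay between the Ad-OSCAR and the Control values. The fall with Ad-OSCAR was 5.9-fold (log2 fold change -2.56 ± 0.06 SE, n = 3 per group, edgeR quasi-likelihood adjusted p = 1.49e-16).

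*Actg2* (ENSMUSG00000059430.14, chr6:83512905-83536265), the γ-actin of visceral smooth muscle, was scarcer per length, at 16.8 TPM in Control beside 254 TPM for *Acta2*. Control cultures measured 8.54, 12.8 and 12 CPM, Ad-OSCAR cultures 2.44, 2.79 and 2.80 CPM, and 5-ASA cultures 3.69, 3.83 and 2.81 CPM. Control stood apart from both other groups, and the lowest 5-ASA culture was level with the highest Ad-OSCAR culture. Its log2 fold change with Ad-OSCAR was -2.06 ± 0.16 (adjusted p = 1.71e-09). For each of the 10 genes, stretches of its longest protein-coding transcript were searched in the annotated transcripts of other genes. None of 100 bases recurred, and of stretches of 50 bases only 0.352% of those in *Acta2* did, in *Actg1* and pseudogenes. Other transcripts of the 10 genes and matches on the opposite strand were not searched.

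Genes for proteins that sit along the filament fell as well. *Tagln* (ENSMUSG00000032085.5, chr9:45929619-45936058) encodes transgelin, an actin crosslinker. It measured 132, 139 and 143 CPM in Control, 27.9, 29.4 and 23.8 CPM in Ad-OSCAR and 39.5, 40.1 and 36.8 CPM with 5-ASA, with no overlap between any of the groups. Its log2 fold change of -2.35 ± 0.07 with Ad-OSCAR (adjusted p = 7.74e-16) was close to that of *Acta2*. *Tagln* shares exon bases with 2 genes of the opposite strand, 108 with *Pcsk7* and 1241 with the antisense gene *Gm48529* (means of 823 and 72.9 counts per culture). The library kit marks strand, but how strand was handled at counting is not given in the sources used here, so *Tagln* counts are uncertain to that extent.

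*Cnn1* (ENSMUSG00000001349.5, chr9:22099216-22109630), calponin of differentiated smooth muscle, had the steepest fall of the 10. It measured 19.5, 20.2 and 21.1 CPM in Control against 0.882, 0.574 and 0.80 CPM in Ad-OSCAR and 1.5, 0.985 and 1.23 CPM with 5-ASA. In counts this was 400 to 491 in a Control culture and 14 to 26 in an Ad-OSCAR culture. The fold size was 26.5 (log2 fold change -4.73 ± 0.14, adjusted p = 2.57e-15). *Cnn2* (ENSMUSG00000004665.10, chr10:79988584-79996062), a calponin of nonmuscle cells as well, was the more abundant of the pair per length, at 222 TPM in Control beside 27.9 TPM.

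*Cnn2* measured 302, 289 and 307 CPM in Control, 73.8, 78.9 and 77.7 CPM in Ad-OSCAR, and 119.8, 114 and 110.3 CPM with 5-ASA. Each group was tight and none overlapped another. Its log2 fold change with Ad-OSCAR was -1.96 ± 0.05 (adjusted p = 1.88e-16). The fitted fall of *Cnn1* was thus the larger of the pair on the log2 scale, although the difference between the genes was not tested.

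*Myl9* (ENSMUSG00000067818.6, chr2:156775420-156781658) encodes the regulatory light chain of smooth muscle and nonmuscle myosin. Its levels were 45.7, 49.7 and 47.8 CPM in Control, 8.31, 8.90 and 6.15 CPM in Ad-OSCAR and 17.1, 14.7 and 17.4 CPM with 5-ASA. No group overlapped another, and the log2 fold change with Ad-OSCAR was -2.62 ± 0.10 (adjusted p = 3.92e-14). *Mylk* (ENSMUSG00000022836.11, chr16:34745210-35002420), the kinase that acts on this light chain, moved least of the 9 genes that fell.

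*Mylk* measured 47.7, 48.0 and 45.1 CPM in Control, 28.8, 27.6 and 27.9 CPM in Ad-OSCAR and 37.3, 37.7 and 40.5 CPM with 5-ASA. The groups were again separate, with the 5-ASA cultures nearer to Control than for any other of the 9 genes that fell. Its log2 fold change with Ad-OSCAR was -0.74 ± 0.05 (adjusted p = 5.74e-10), which did not reach the study's fold criterion. Its 3 antisense neighbours averaged under 5 counts per culture.

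The tropomyosin genes, whose products lie in the groove of the actin filament, had smaller fitted falls than *Acta2*, a difference that was not tested between the genes. *Tpm1* (ENSMUSG00000032366.15, chr9:67022590-67049406) measured 454, 484 and 437 CPM in Control, 243, 237 and 225 CPM in Ad-OSCAR and 275, 285 and 258 CPM with 5-ASA. Its log2 fold change was -0.96 ± 0.05 (adjusted p = 8.43e-12), also short of the study's fold criterion. *Tpm2* (ENSMUSG00000028464.16, chr4:43514711-43523765) measured 186, 188 and 183 CPM in Control, 63.5, 65.4 and 61.6 CPM in Ad-OSCAR and 85.9, 75.7 and 79.2 CPM with 5-ASA, a log2 fold change of -1.55 ± 0.05 with Ad-OSCAR (adjusted p = 9.75e-15). For both genes the groups did not overlap.

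*Des* (ENSMUSG00000026208.9, chr1:75360329-75368579), which encodes desmin, the intermediate filament of muscle, was the exception. It had only 8 to 26 counts in a culture, at 0.519, 0.616 and 0.423 CPM in Control, 0.882, 0.574 and 0.618 CPM in Ad-OSCAR and 0.539, 0.474 and 0.395 CPM with 5-ASA. Control overlapped both other groups. The log2 fold change with Ad-OSCAR was 0.40 ± 0.32 (adjusted p = 0.284), so no difference was detectable at this depth. On a TPM scale it passed the threshold, at 0.28 with an adjusted p of 0.0368 by limma on log2(TPM + 1) and at 0.70 with 0.0456 on log2(TPM + 0.1).

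The second comparison, Ad-OSCAR + 5-ASA against Ad-OSCAR, asks what the drug does to cells that already overexpress OSCAR. Here 8 of the 10 genes were higher with 5-ASA at an adjusted p under 0.05 and none was lower, where 10.4% of all genes tested were higher and 7.38% lower. *Actg2* and *Des* did not pass. The study's criteria for the drug (a fold above 1.5 and an unadjusted p under 0.05) are worded in its methods for treated cells against Ad-Control, and were applied to both drug comparisons here. By them only *Cnn1* and *Myl9* were higher, against 2.27% of all genes. The median log2 fold change was 0.45, and that of all genes was -0.00. In 9 genes all 3 cultures with 5-ASA lay above all 3 without it in CPM, against 17.8% of all genes, and for *Des* all 3 lay below, against 16.1%. For *Actg2* the gap was only from 2.801 to 2.806 CPM. *Oscar* was lower with 5-ASA as well, in the ranges given above, and its part in these differences was not tested.

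*Myl9* rose most, by 2.11-fold (log2 fold change 1.08 ± 0.10, adjusted p = 1.08e-06). *Cnn1*, whose values are given separately below, was next at 0.69, followed by *Cnn2* at 0.58 ± 0.05 (adjusted p = 2.34e-07), then *Tagln* at 0.52 ± 0.07 (adjusted p = 2.81e-05), *Mylk* at 0.45 ± 0.05 (adjusted p = 7.85e-06) and *Acta2* at 0.44 ± 0.06 (adjusted p = 7.69e-05). *Tpm2* at 0.34 ± 0.05 (adjusted p = 0.000141) and *Tpm1* at 0.22 ± 0.05 (adjusted p = 0.00613) moved least of those that passed. The values for *Actg2* were 0.37 ± 0.18 (adjusted p = 0.176) and for *Des* -0.56 ± 0.32 (adjusted p = 0.249). For every gene that rose, the rise was smaller than the fall with Ad-OSCAR, 1.08 beside 2.62 for *Myl9* and 0.45 beside 0.74 for *Mylk*. Rise and fall are measured from the same Ad-OSCAR cultures, so they are not independent.

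The call for *Cnn1*, 0.69 ± 0.22 with an adjusted p of 0.037, rested on 14 to 26 counts per Ad-OSCAR culture and 27 to 39 per 5-ASA culture. It held in 10 of 18 alternative settings. Without Ad-OSCAR culture 2 it was 0.54 (adjusted p = 0.128), without Ad-OSCAR culture 3 it was 0.73 (adjusted p = 0.0682), without 5-ASA culture 1 it was 0.53 (adjusted p = 0.188) and without 5-ASA culture 3 it was 0.70 (adjusted p = 0.0684). On log2(TPM + 1) it was 0.00 (adjusted p = 0.987). The *Cnn1* levels in TPM were 2.06, 2.08 and 1.29 in Ad-OSCAR and 1.93, 1.68 and 1.77 with 5-ASA, which overlap. *Mylk* and *Tpm1* also lost their call on log2(TPM + 1), at 0.24 (adjusted p = 0.0857) and 0.10 (adjusted p = 0.296).

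The split of calls over all genes depended on the scale. Of all genes called in the drug comparison, 58.5% were higher with TMM scaling, 29.5% with total counts only and 27.4% by limma on log2(TPM + 1), which differs in test, length scaling and pseudocount as well. The contractile genes called were still all higher, 8, 7 and 5 of them in the same order, where 10.4%, 6.88% and 3.66% of all genes were called higher. Scaling to total counts moved the median of all genes by 0.13 (log2) in Ad-OSCAR against Control, where 62.8% of the genes called were then higher in place of 50.4%, and the same number of contractile genes, 9, was lower. By the study's criteria 6 were then lower in place of 7, with *Tpm2* at -1.42.

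**Figure D2:**
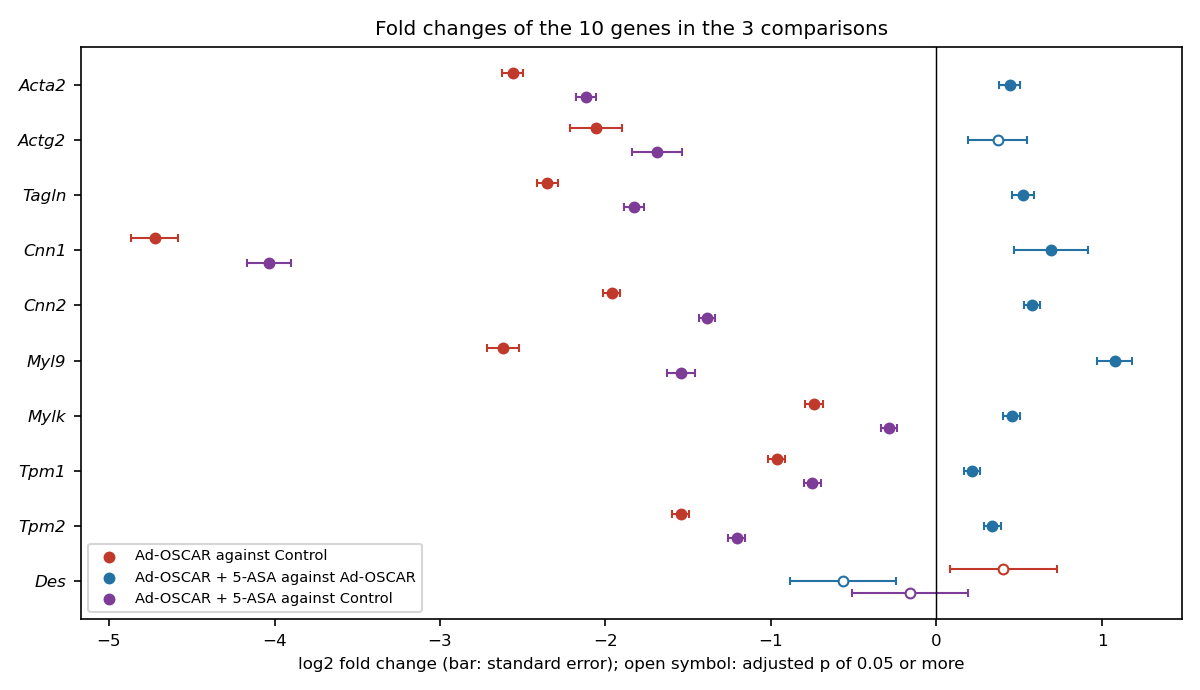
Log2 fold changes of the 10 genes in the 3 comparisons (points; bars, standard error from edgeR; filled symbols, adjusted p under 0.05). Ad-OSCAR values run from -4.73 for *Cnn1* to 0.40 for *Des*, and 5-ASA values from 1.08 for *Myl9* to -0.56 for *Des*.

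The third comparison, Ad-OSCAR + 5-ASA against Control, shares its cultures with the other 2 comparisons, so its values are set beside theirs and are not independent. All 9 genes that were lower with Ad-OSCAR were lower here as well, where 31.8% of all genes were lower and 31.4% higher, and 8 of them, the exception being *Mylk*, met the study's criteria for the drug (15.3% of all genes). *Cnn1* remained 16.4-fold below Control (log2 fold change -4.03 ± 0.13), *Acta2* 4.34-fold (-2.12 ± 0.06), *Tagln* 3.55-fold (-1.83 ± 0.06), *Actg2* 3.22-fold (-1.69 ± 0.15), *Myl9* 2.91-fold (-1.54 ± 0.09), *Cnn2* 2.61-fold (-1.39 ± 0.05), *Tpm2* 2.31-fold (-1.21 ± 0.05), *Tpm1* 1.68-fold (-0.75 ± 0.05) and *Mylk* 1.22-fold (-0.29 ± 0.05). Their adjusted p-values ran from 1.71e-15 for *Acta2* to 8.93e-05 for *Mylk*. *Des* differed from Control by -0.16 ± 0.35 (adjusted p = 0.711).

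The mix of transcripts was examined through the length that RSEM reports for a gene, a mean over its transcripts weighted by their estimated abundance. No member was called in any of the 3 comparisons by limma on log2 length, where 0.508%, 0.00807% and 0.645% of the 12398 genes with a varying length were called. At an unadjusted p under 0.05 there were 2 members in Ad-OSCAR against Control, 2 in the drug comparison and 1 in 5-ASA against Control, among 1410, 668 and 1540 genes. The *Cnn1* length was 1474, 1302 and 1407 bases in Control, 908, 642 and 1248 in Ad-OSCAR and 1397, 1105 and 1309 with 5-ASA, and at its few counts the Ad-OSCAR values spread widely. *Mylk* was longest with 5-ASA, at 6565, 6891 and 6609 bases against 5869, 6143 and 5747 in Control (log2 difference 0.18, unadjusted p = 0.00746, adjusted p = 0.19). *Acta2* and *Cnn2* have only 2 annotated transcripts each, so the length gives the share of the longer one. For *Acta2* it was 78.1%, 75.6% and 80.4% in Control, 78.0%, 72.5% and 74.4% in Ad-OSCAR and 81.6%, 70.1% and 92.7% with 5-ASA, and for *Cnn2* at least 94.6% in every culture.

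Set against the other genes of their families, *Acta2*, *Actg2*, *Tpm1*, *Tpm2*, *Cnn1*, *Cnn2* and *Tagln* held smaller mean shares with Ad-OSCAR. The shares are of whole genes and do not separate muscle from nonmuscle transcripts. This was computed in TPM after the values of the members had been seen and carries no test. *Acta2* made up 5.68 ± 0.13% (SD, n = 3) of the summed TPM of 6 actin genes in Control, 2.43 ± 0.08% in Ad-OSCAR and 2.36 ± 0.23% with 5-ASA, while the sum itself went from 4465 to 1843 and 2316 TPM. The share of *Acta2* with 5-ASA, 2.20 to 2.63% over cultures, overlapped that without it, 2.35 to 2.51%. The cytoplasmic actins *Actb* and *Actg1* made up most of the rest, 37.4% and 56.6% in Control against 43.3% and 54.0% in Ad-OSCAR.

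*Tpm2* went from 18.8 ± 0.4% of the tropomyosins in Control to 10.9 ± 0.3% in Ad-OSCAR and 12 ± 0.9% with 5-ASA, and *Tpm1* from 34.2 ± 1.3% to 30.8 ± 1.3% and 30.4 ± 0.4%. Of the mainly cytoskeletal tropomyosins, *Tpm3* held 11.9%, 17.3% and 14.8% and *Tpm4* 35.2%, 41.0% and 42.8%. *Cnn3*, the calponin outside the 10 genes, was 52.7% of the calponins in Control, 70.4% in Ad-OSCAR and 66.4% with 5-ASA. *Tagln* was 35.0 ± 0.5% of the transgelins in Control, 21.1 ± 1.4% in Ad-OSCAR and 27.9 ± 0.8% with 5-ASA, the rest being nearly all *Tagln2*. *Cnn1* held 5.27 ± 0.46% of the calponins in Control, 0.91 ± 0.23% in Ad-OSCAR and 0.74 ± 0.05% with 5-ASA. Among the shares of the contractile genes, those of *Tagln* and *Cnn2* with 5-ASA lay between the other groups without overlap. The mean share of *Cnn1* was lower with 5-ASA than without it, and the ranges of these groups overlapped.

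**Figure D3:**
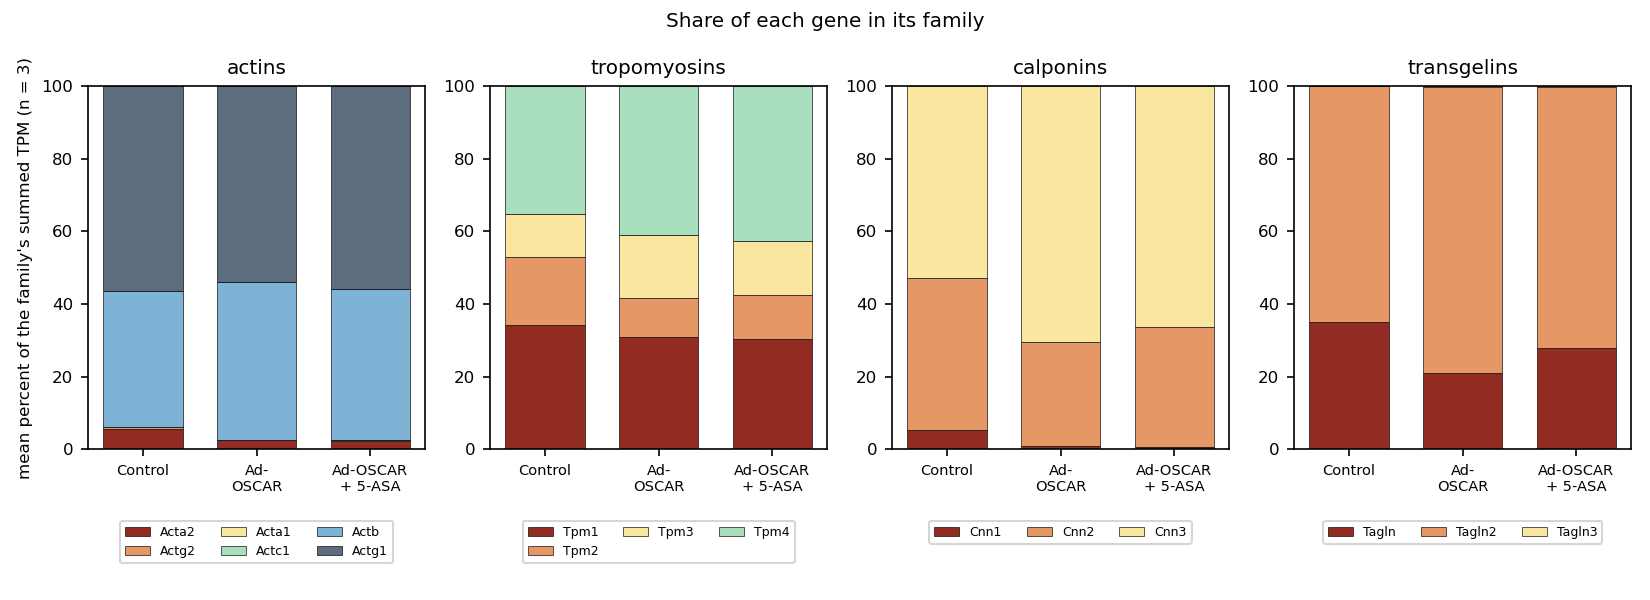
Mean share of each gene in the summed TPM of its family, in percent (stacked bars, 3 cultures per group). From Control to Ad-OSCAR the share of *Acta2* goes from 5.68 to 2.43%, of *Tpm2* from 18.8 to 10.9%, of *Cnn2* from 42.0 to 28.7% and of *Tagln* from 35.0 to 21.1%. That of *Cnn1* goes from 5.27 to 0.91%.

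Beyond the 10 genes, lists of related genes were read in the same fit. Over all genes tested, 32.2% were lower and 32.7% higher with Ad-OSCAR, and 7.38% were lower and 10.4% higher with 5-ASA. Of the other family members, 12 of 16 listed genes were tested and 9 were lower with Ad-OSCAR and 2 higher, with a median log2 fold change of -0.58. *Actg1* (-1.42 ± 0.04, adjusted p = 4.04e-15) and *Tagln2* (-1.38 ± 0.05, adjusted p = 4.15e-14) fell most. The 2 that rose were *Mylk2*, the myosin light chain kinase of skeletal muscle, from 0.268 to 33.1 CPM (6.95 ± 0.18), and 1 of the pair of annotated genes that bear the symbol *Myl12b* (0.92 ± 0.07), whose namesake fell (-0.60), so reads may have been divided between them. With 5-ASA 6 of the 12 rose and none fell, led by *Actg1* (0.47 ± 0.04) and *Actb* (0.33 ± 0.05). The rise of *Tagln2* with 5-ASA did not pass (0.06, adjusted p = 0.451), where that of *Tagln* did.

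Of 12 other smooth muscle contractile genes 9 were tested, and 6 were lower with Ad-OSCAR and 1 higher (median -1.10), where 32.2% of all genes were lower and 32.7% higher. *Lmod1*, an actin nucleator of smooth muscle, fell by 2.39 on the log2 scale and *Smtn*, which encodes smoothelin, by 1.36. *Synpo2*, an actin-bundling protein gene, rose (1.02 ± 0.10). With 5-ASA 5 rose and 1 fell, where 10.4% of all genes rose and 7.38% fell. *Lmod1* (0.70 ± 0.22, adjusted p = 0.0337) and the small heat shock protein gene *Hspb7* (0.67 ± 0.15) were among those that rose, while *Synm*, an intermediate filament gene, fell (-0.52 ± 0.16). *Pln* was listed at 0 in every group, and *Kcnmb1* averaged at most 0.0133 TPM.

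The stress fibre crosslinkers and LIM proteins fell in nearly every case. All 16 were tested, and 15 were lower with Ad-OSCAR and 1, *Palld*, which encodes palladin, was higher (0.26 ± 0.04). The median was -0.58 against 0.02 for all genes, of which 32.2% were lower and 32.7% higher. *Lmcd1* (-3.40 ± 0.11) and the vinculin gene *Vcl* (-1.37 ± 0.04) fell most. With 5-ASA 12 of the 16 rose and none fell (median 0.33), led by *Lmcd1* (0.85 ± 0.14) and *Fhl2* (0.48 ± 0.05), where 10.4% of all genes rose and 7.38% fell.

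Among genes for SRF and its cofactors, 3 were lower and 2 higher with Ad-OSCAR (median -0.12), where 32.2% of all genes were lower and 32.7% higher. These are RNA levels, and the activity of the proteins was not measured. Of 8 listed genes 7 were tested, *Myocd*, the smooth muscle cofactor myocardin, not passing the filter at 0.0267 TPM in both Control and Ad-OSCAR. *Srf* itself was lower with Ad-OSCAR (37.8 to 26.2 CPM, -0.53 ± 0.06, adjusted p = 9.02e-07) and so was *Mrtfa* (-0.31 ± 0.07, adjusted p = 0.000467), while *Mrtfb* (0.13 ± 0.05, adjusted p = 0.0341) and *Elk1* (0.23 ± 0.05) were higher. The list also held *Tead1* and *Smad3*, and *Tead1* was the third that fell and the one gene of the list that rose with 5-ASA (0.15 ± 0.04, adjusted p = 0.0221). The 5-ASA values of *Srf* and *Mrtfa* were 0.09 each (adjusted p = 0.409 and 0.422).

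Among the other intermediate filament genes, of which 5 of 8 were tested, 3 were lower and 2 higher with Ad-OSCAR. Over all genes 32.2% were lower and 32.7% higher. *Vim*, the vimentin gene of mesenchymal cells, fell from 3155 to 663 CPM (-2.25 ± 0.04, adjusted p = 3.00e-18), and *Krt19*, an epithelial keratin gene, fell by 2.78 on the log2 scale. Both rose with 5-ASA, *Vim* by 0.20 ± 0.04 and *Krt19* by 0.86 ± 0.13.

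Genes for the matrix and receptors of myofibroblasts went both ways, as genes did in general. Of 17 listed genes 16 were tested, and 9 were lower and 6 higher with Ad-OSCAR (median -0.65). Over all genes 32.2% were lower and 32.7% higher. The matrix genes *Tgfbi* (-3.15 ± 0.06) and *Cthrc1* (-2.50 ± 0.05) fell, whereas tenascin C, *Tnc*, rose from 386 to 1793 CPM (2.22 ± 0.04) and the growth factor gene *Tgfb1* from 34.8 to 74.7 CPM (1.11 ± 0.07). With 5-ASA 11 of 16 rose and none fell (median 0.30), where 10.4% of all genes rose and 7.38% fell. The rises were led by *Postn* (0.84 ± 0.17), which encodes periostin, and the collagen gene *Col1a2* (0.60 ± 0.05). So with Ad-OSCAR 9 genes of this list fell, as most of the contractile genes did, and 6 rose, *Tgfb1* and *Tnc* among them. With 5-ASA no gene in this list was called lower.

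**Figure D4:**
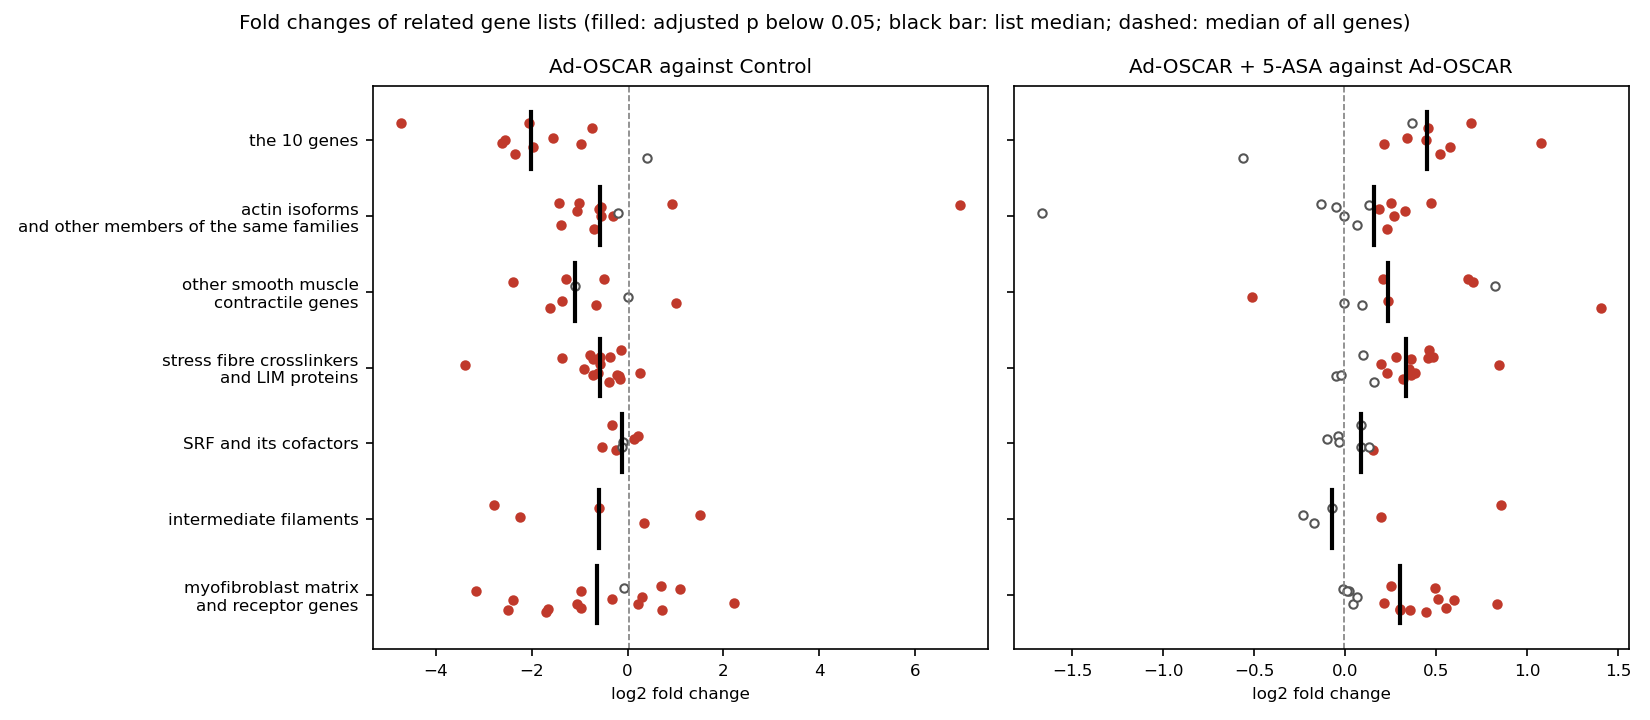
Log2 fold changes of every tested gene of each list described with Ad-OSCAR (left) and with 5-ASA (right); filled points passed an adjusted p of 0.05, black bars are list medians and the dashed line is the median of all genes. The contractile genes have a median of -2.01 on the left and 0.45 on the right, and the stress fibre list -0.58 and 0.33.

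Genes with a profile most like that of *Acta2* were found by the distance between log2 CPM values, each gene centred on its own mean over the 9 cultures, and other genes were ranked among 9325 with a mean of at least 10 CPM. Outside the 10, the nearest were *Fmod* (distance 0.243), *Cthrc1* (0.278), *Ppp1r3c* (0.279), *Mrgprf* (0.357) and *Trabd2b* (0.386). *Fmod*, a matrix proteoglycan gene, measured 1930 CPM in Control, 315 CPM in Ad-OSCAR and 428 CPM with 5-ASA. Within the 10, *Tagln* was nearest (0.392, rank 7), followed by *Myl9* (0.932, rank 78), *Actg2* (0.933, rank 79), *Cnn2* (0.984, rank 85) and *Tpm2* (1.39, rank 192). *Tpm1*, *Mylk* and *Cnn1* lay at ranks 582, 1263 and 2026, and *Des* at 6925. *Actg2*, *Cnn1* and *Des* have means under 10 CPM and are not among the 9325, so their ranks are the places their distances would take there. The distance follows the size of the fall as well as its direction.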

How the data were processed

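The deposited tables hold, per gene and culture, an expected count, a TPM value and a transcript length, which the authors produced from trimmed paired reads of a stranded mRNA library aligned to GRCm38 with STAR 2.7.1a and quantified with RSEM 1.3.1. The study's reporting summary names another RSEM version for TPM, although TPM and counts are columns of the same deposited tables. The deposited expected counts are estimates and were rounded to whole numbers. The deposited TPM values are relative to transcript length and to each culture's total. Symbols came from GENCODE M21 and were found for 55144 of 55471 IDs. RSEM divides reads that match several genes or transcripts, which can move values of overlapping or similar genes.

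The main test was the quasi-likelihood F test of edgeR 4.0.16 (R 4.3.3) on counts, with TMM scaling, filterByExpr (minimum count 10, 15362 genes kept) and group as the sole term over all 9 cultures, leaving 6 residual degrees of freedom, with Benjamini-Hochberg adjustment over all genes tested. A gene was called at an adjusted p under 0.05. The study's criteria were counted as well. Transcript length was tested with limma 3.58.1 on its log2. The common biological coefficient of variation was 5.11%. Both tests were first run on simulated data with the same spread for every gene. Real genes differ in spread, so that run does not show how the tests behave on these data. DESeq2 1.42.0, limma on log2(TPM + 1) and on log2(TPM + 0.1), other scalings and filters, the replicate block, only the groups compared, and each culture left out were alternatives, of which scaling to total counts was chosen after seeing the data.

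The genes described and the lists beside them were chosen with earlier results of these data known, and the rule that named genes within a list was the 2 largest changes each way among those called with a mean of at least 1 CPM. All 10 contractile genes are named. Depth was 19733448 to 28192740 counts per culture. Replicate libraries of a group differed by more than sampling noise (chi-square per degree of freedom 4.25 to 8.10). Proteins were not analysed here, and 1 of the lists is not reported here.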

Additional observations from a re-analysis of the deposited data

How the results depend on the processing

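The 9 falls with Ad-OSCAR, and the same genes' calls against Control after 5-ASA, kept direction and call in all 18 alternatives, as did the 5-ASA calls of *Acta2*, *Tagln*, *Cnn2*, *Myl9* and *Tpm2*. On both TPM scales 1 gene, *Des*, was called higher with Ad-OSCAR in place of 0, and in the drug comparison 5 genes were called higher in place of 8 and 1 in place of 2 met the study's criteria as higher. On log2(TPM + 0.1) 1 gene met them as lower in place of 0. When cultures were left out in turn, 1 to 3 genes met them as higher. With total counts only, 6 genes in place of 7 met the study's criteria as lower in Ad-OSCAR against Control. The cause was not tested. The replicate numbers did not pair the cultures (correlation of deviations -0.202 to 0.214 over 9 same-numbered pairs). With the replicate block 9882, 2500 and 9555 genes of all were called in the 3 comparisons in place of 9983, 2732 and 9705, and no call of the 10 genes changed. For transcript length the block left 5 genes with Ad-OSCAR in place of 63, and 9 in 5-ASA against Control in place of 80. Leaving out a culture gave 19 to 35, 1 to 6 and 11 to 48 genes in place of 63, 1 and 80, and a minimum of 10 counts gave 0 in the drug comparison, so those counts over all genes are not stable. None of the 10 genes was called for length in any of these. *Des* and *Cnn1* had fewer than 30 counts in each Ad-OSCAR culture.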
